A study of Drosophila melanogaster with 12 samples.

Results

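The effect of an rfx knock-out on the transcriptome of the brain cells that express Rfx was measured in Drosophila melanogaster. The comparison uses 6 of the 12 sequenced libraries: 3 libraries of GFP-positive cells from rfx knock-out (KO) brains and 3 libraries of GFP-positive cells from wild-type (WT) brains. The brains came from larvae early in instar 3, were dissociated and sorted by FACS, and GFP marks the cells that express Rfx. The other 6 libraries hold the GFP-negative cells of the same 2 genotypes, 3 libraries each, and serve here to show where the GFP-positive comparison differs. The allele, the construct that drives GFP, the genetic background of the strains and the number of brains per library are not given in the sources used here. The labels do not say that the 3 libraries of a group came from separate dissections, so a p-value here speaks of the spread among libraries. The members were the genes whose normalised read count was 1 or more in 3 or more of the 12 libraries, which left 9912 of 12610 genes.

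Rfx is the fly member of the RFX family of transcription factors, which bind a motif known as the X-box in the promoters of genes for the primary cilium. Cilia are assembled by intraflagellar transport (IFT), in which 2 protein complexes, IFT-B and IFT-A, are carried along the axoneme by kinesin-2 and dynein motors. A transition zone at the ciliary base gates what enters, and the BBSome and small GTPases move membrane proteins. In Drosophila the cells known to carry cilia are mainly the sensory neurons of the peripheral nervous system and the male germ line, while most neurons of the central brain are not known as ciliated cells.

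The 6 GFP-positive libraries held 26166421 to 29771321 reads over genes. Each value below is a normalised read count (CPM scale), log2 changes are KO minus WT on log2(value + 1), and adjusted p-values are those of limma over all 9912 genes. Reads of rRNA genes made up 2.54% of KO GFP-positive replicate 3 and 12.2% of WT GFP-positive replicate 2, called the rRNA-rich libraries below, while the share lay between 0.289% and 0.976% in the other 10. On the first principal component of the 6 libraries, which held 42.2% of the variance, the KO libraries lay at -23.5, -28.7 and -4 and the WT libraries at 23.9, 8.26 and 24. The labelled cell type is neuron, and elav, an RNA-binding protein of neurons, stood at 564, 602 and 622 in KO and at 559, 667 and 526 in WT GFP-positive cells. The glial factor repo had 29.2, 18.1 and 5.95 in KO and 22.8, 25.7 and 4.61 in WT, the lowest value of each genotype being in replicate 3.

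Rfx itself was lower in KO GFP-positive cells but still well counted. It stood at 1322, 1035 and 1021 in the KO libraries, against 2918, 2542 and 2918 in the WT libraries, a log2 change of -1.32 ± 0.11 (SE; limma adjusted p = 1.03e-05). GFP-negative cells held far fewer Rfx reads, at 52.3, 52.3 and 54.5 in KO and 73.5, 74.1 and 73.5 in WT. The gene lies on 3R at 10361760 to 10378068 of BDGP6, and the table counts reads over the whole gene, so it does not show which part of the transcript was read in KO cells.

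In all, 304 genes passed an adjusted p of 0.05 in limma, which is 3.07% of the genes tested. Of them, 173 rose (1.75%) and 131 fell (1.32%). These shares are the background for every list count below. On the log2(value + 1) scale, 89 of the risen and 89 of the fallen genes changed at least 2-fold. In each of the 304 the 3 KO values lay all above or all below the 3 WT values, a separation that 14.1% of tested genes showed. The median log2 change was 0.01 over all genes tested, and the median absolute log2 change was 1.14 over the called genes and 0.13 over all. The libraries carry title numbers that fall into 3 runs, each with 1 library of every group. A fit with the run as a block raised the count of risen genes to 288 and of fallen genes to 187. Leaving out WT GFP-positive replicate 1 or 3 lowered the count of risen genes to 107 or 113.

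IFT52 and nompB, both of IFT-B, had the largest falls among the cilium genes tested. Of 8 tested IFT-B members, 4 fell, 1 rose and 3 did not pass, with a median log2 change of -1.48. nompB (2L, 21578292 to 21589423), the fly IFT88, stood at 1.76, 4.58 and 1.68 in KO cells, against 140, 128 and 135 in WT cells. The fall was 50.2-fold (log2 -5.29 ± 0.27, SE; adjusted p = 1.71e-07), or 78.1-fold without KO replicate 2. Every KO library lay far below every WT library. IFT52 (2L, 6555717 to 6557502), a core subunit of the same complex, had 0.112, 0.157 and 0.588 in KO, or 3, 4 and 15 reads, against 26.3, 20.4 and 23.7 in WT. Its fall was 82.1-fold, and 174-fold without KO replicate 3 (adjusted p = 3.05e-07).

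Among the less abundant IFT-B subunits the same order of libraries held. IFT57 had 2.02, 1.45 and 1.68 in KO and 12, 10.7 and 15.3 in WT (adjusted p = 2.44e-05). Oseg5, the fly IFT80, had 0.112, 1.1 and 0.744 in KO and 7, 7.53 and 8.03 in WT, an 11.5-fold fall that was 17.6-fold without KO replicate 2 (adjusted p = 0.00106). Both were low genes in WT, and their KO values rest on 3 to 54 reads a library. Ttc30, the fly IFT70, did not pass, at 1.31, 0.509 and 0.823 in KO and 1.72, 1.44 and 2.6 in WT (adjusted p = 0.396).

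IFT54 went the other way. It stood at 27.7, 28.7 and 22 in KO GFP-positive cells, against 1.36, 1.02 and 1.04 in WT GFP-positive cells, a log2 change of 3.66 ± 0.17 (SE; adjusted p = 7.66e-08). It was also higher in GFP-negative cells, at 15, 13.4 and 11.8 in KO and 0.994, 1.11 and 0.941 in WT, and so belongs to the genes that differ by genotype in both fractions, described further on. None of the 4 fallen IFT-B genes passed in GFP-negative cells, where nompB stood at 0.648, 0.497 and 1.22 in KO and 1.87, 1.07 and 1.54 in WT (adjusted p = 0.676).

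The IFT-A complex and the motors changed less. Of 9 tested members, IFT43, a subunit of IFT-A, fell and the other 8 did not pass, with a median of -0.17. Of the 9, 5 had an unadjusted limma p under 0.05, and DESeq2 called 2. IFT43 had 2.1, 2.35 and 2.58 in KO and 9.23, 7.94 and 10.6 in WT (log2 -1.61 ± 0.18, SE; adjusted p = 0.000161). The kinesin-2 subunits were among the most abundant cilium genes in both genotypes. Kap3, the kinesin-associated subunit, stood at 260, 254 and 228 in KO and 270, 275 and 256 in WT (adjusted p = 0.863). Klp68D, a kinesin-2 motor, had 209, 208 and 160 in KO and 244, 264 and 230 in WT, which did not pass (adjusted p = 0.21) but did in the fit blocked by runs (adjusted p = 0.0404) and with DESeq2 (adjusted p = 0.0469).

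At the transition zone and basal body 3 of 8 tested genes fell and 5 did not pass, with a median of -0.66. Of the 8, 5 had an unadjusted limma p under 0.05, and DESeq2 called 4. Fam92, which acts with Chibby at the base of cilia, had 8.42, 7.76 and 5.17 in KO against 67.6, 62.8 and 82 in WT, a 9.95-fold fall (adjusted p = 2.64e-06). B9d1, a component of the MKS module of the transition zone, had 0.15, 0.627 and 0.0392 in KO, or 4, 16 and 1 reads, and 3.63, 2.56 and 3.38 in WT. The fall of B9d1 was 11.7-fold, or 33.8-fold without KO replicate 2 (adjusted p = 0.000498). dila, a basal body protein, had 9.58, 6.03 and 4.5 in KO and 30.1, 23 and 33.5 in WT (adjusted p = 0.000685). Cep290, a large transition zone protein, was far more abundant than these and its groups overlapped, at 127, 100 and 107 in KO and 192, 121 and 182 in WT (adjusted p = 0.274).

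Of 9 tested genes of the BBSome, ciliary GTPases and rootlet, 3 fell and 6 did not pass, with a median of -0.24. dnd, the fly Arl3 GTPase, had 0.112, 0.0392 and 0.627 in KO, or 3, 1 and 16 reads, against 8.33, 9.29 and 7.5 in WT, a 32.3-fold fall that was 111-fold without KO replicate 3 (adjusted p = 1.18e-05). Root, the fly rootletin, which forms the fibre below the basal body, had 12.2, 7.37 and 11.1 in KO and 39.9, 26.4 and 34.3 in WT (adjusted p = 0.000512). BBS1, a BBSome subunit, was near the floor, at 0.112, 0.392 and 0.392 in KO and 1.65, 3.07 and 1.15 in WT (adjusted p = 0.0315). That call was lost in 5 of the 6 fits that each leave out 1 GFP-positive library, all but the one without WT replicate 3, with an adjusted p up to 0.13, and when both rRNA-rich libraries were left out (0.14).

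Of 16 tested axoneme and motility genes, 2 fell and 14 did not pass, with a median of -0.42. Of the 16, 6 had an unadjusted limma p under 0.05, and DESeq2 called 3. hmw, known for its part in flagella and motile cilia of the fly, stood at 0.299, 0.705 and 0.509 in KO against 19.2, 23.9 and 18.8 in WT, a 40.9-fold fall (adjusted p = 3.04e-07). nmdyn-D7, the fly NME7, had 1.83, 1.45 and 2.15 in KO and 21.1, 18.9 and 25.6 in WT (adjusted p = 7.88e-06). The other axoneme genes were at most modestly lower in value. Bug22, the fly CFAP20, had 47.9, 41.4 and 44 in KO and 64.2, 51.8 and 62.4 in WT (adjusted p = 0.163, and 0.0156 with DESeq2), and the dynein heavy chain Dhc36C had 3.41, 2.74 and 6.11 in KO and 9.48, 5.34 and 8.21 in WT (adjusted p = 0.443, and 0.0254 with the lane as a covariate). Of 21 tested centriole and pericentriolar genes, limma and edgeR called 0 and DESeq2 called 1, 3 had an unadjusted p under 0.05, and the median was 0.05.

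**Figure D1:**
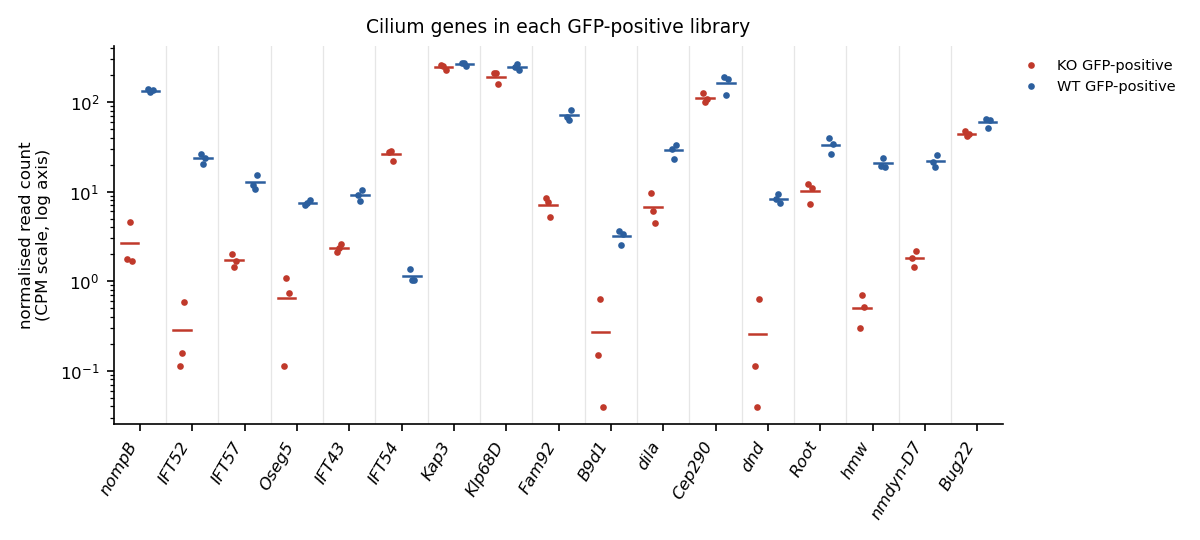
Normalised read counts (CPM scale, log axis) of 17 cilium genes in each GFP-positive library, KO left of WT; points are libraries and lines are means of 3. nompB, IFT52, dnd and hmw lie more than 30-fold lower in KO, IFT54 lies higher, and Kap3 and Klp68D differ little.

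In GFP-negative cells the 13 fallen genes of these 5 lists had limma adjusted p-values between 0.612 and 0.991. Fam92 had 2.35, 1.31 and 1 in KO and 2.38, 2.56 and 2.48 in WT GFP-negative cells, and hmw had 0.679, 0.568 and 0.567 in KO and 1.59, 0.597 and 1.17 in WT. nmdyn-D7 was less restricted, at 5.8, 11.3 and 11.8 in KO and 7.51, 8.19 and 9.97 in WT GFP-negative cells, all above its KO GFP-positive libraries.

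Transcription factors of neuronal identity moved in both directions. Of 72 tested homeodomain, POU and LIM factors 10 rose, 4 fell and 58 did not pass, with a median of -0.03. otp (2R, 20883625 to 20903414), the homeodomain factor orthopedia, had the largest fall: 3.78, 29.7 and 4.23 in KO against 536, 560 and 529 in WT. The fall was 43.1-fold, or 135-fold without KO replicate 2, which stood apart from the other KO libraries (log2 -5.89 ± 0.50, SE; adjusted p = 1.59e-05). In GFP-negative cells otp had 37, 35.7 and 35.5 in KO and 48.5, 48.5 and 47.2 in WT, so the KO GFP-positive libraries lay below both GFP-negative groups. The count of fallen factors was 2 without KO replicate 1, WT replicate 2 or WT replicate 3, and 1 when both rRNA-rich libraries were left out.

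Factors outside the homeodomain list fell as well. erm, the fly Fezf factor, which restricts the fate of intermediate progenitors, had 12.8, 18.8 and 13.6 in KO and 41.4, 49 and 40.9 in WT (adjusted p = 5.88e-05). opa, the fly Zic factor, had 32.7, 33.1 and 35.1 in KO and 76.5, 67 and 88.7 in WT (adjusted p = 0.000161). dmrt99B, a DM-domain factor, had 21.2, 15.8 and 26.7 in KO and 60.6, 66.5 and 60.3 in WT (adjusted p = 0.000427). In all 3 the groups were well apart, and the GFP-negative libraries, at 118 to 156 for erm, 198 to 292 for opa and 125 to 196 for dmrt99B, were higher than either GFP-positive group.

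The neighbouring Sp-family genes btd and Sp1 fell together. btd had 11, 8.15 and 9.24 in KO and 20.7, 17.2 and 22 in WT (adjusted p = 0.00167), and Sp1 had 11, 12.5 and 17.9 in KO and 30.4, 31.3 and 31.8 in WT (adjusted p = 0.00113). Clk, the activator of the circadian clock, had 7.04, 5.92 and 8.81 in KO and 28, 27.6 and 23.4 in WT (log2 -1.74 ± 0.24, SE; adjusted p = 0.00089). In GFP-negative cells Clk had 1.48, 0.852 and 1.44 in KO and 4.97, 2.05 and 3.54 in WT, with no overlap, which did not pass (adjusted p = 0.149). It was 1 of 2 fallen genes among 15 of the clock list, and the count was 1 without KO replicate 1, KO replicate 3, WT replicate 1 or WT replicate 2.

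Among the risen factors, C15, ara and caup were near the floor in WT GFP-positive cells and well counted in GFP-negative cells of both genotypes. C15, the fly TLX homeodomain factor, had 11.3, 9.83 and 8.7 in KO GFP-positive cells and 0.933, 0.465 and 0.594 in WT GFP-positive cells (log2 2.72 ± 0.19, SE; adjusted p = 2.64e-06). In GFP-negative cells C15 had 16.2 to 19.1 in KO and 13.6 to 21.4 in WT. The libraries are bulk RNA. In every result above and below, rises and falls alike, a change in cells of a type and a change in RNA per cell cannot be told apart.

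The Iroquois genes ara and caup lie next to each other on 3L and rose alike. ara had 16.9, 12.6 and 10.6 in KO and 1.15, 0.976 and 1.71 in WT (adjusted p = 8.19e-06). caup had 8.42, 6.27 and 9.28 in KO and 0.682, 0.372 and 1.41 in WT, a 9.72-fold rise that was 15.2-fold without WT replicate 3 (adjusted p = 2.18e-05). No KO library overlapped a WT library in either gene. zfh1, a zinc finger homeodomain repressor, had 68.5, 77.8 and 59.2 in KO and 19.5, 25.2 and 17.8 in WT (adjusted p = 7.69e-06), and the homeodomain gene CG32532 had 34.3, 27.4 and 31.4 in KO and 8.72, 8.18 and 7.76 in WT (adjusted p = 4.41e-06).

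The eye and mushroom body factors ey and dac rose by smaller factors from a higher level. ey, the fly Pax6, had 130, 122 and 110 in KO and 63, 64.5 and 62.9 in WT (adjusted p = 5.36e-05). dac, a nuclear cofactor, had 240, 262 and 246 in KO and 123, 147 and 125 in WT (adjusted p = 6.58e-05). The spread within each group was small beside the difference, and dac stood at 132 to 146 in KO and 139 to 153 in WT GFP-negative cells, below the KO GFP-positive libraries.

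Of 69 other identity factors tested 9 rose, 2 fell and 58 did not pass, with a median of 0.09; the blocked fit gave 14 risen. The fallen count was 1 without KO replicate 2 or without any 1 of the 3 WT libraries. Hr51, a nuclear receptor of mushroom body neurons, had 7.75, 5.84 and 9.99 in KO and 1.98, 1.44 and 1.08 in WT (adjusted p = 9.07e-05). kn, the fly EBF factor Collier, had 78, 75.1 and 77.4 in KO and 26.2, 34.8 and 37.5 in WT (adjusted p = 0.000228). salm, a Spalt zinc finger factor, had 94.7, 106 and 87.8 in KO and 49, 37.8 and 44.1 in WT (adjusted p = 0.000116). tio, a zinc finger factor of the Teashirt family, and vg, the fly Vestigial-like cofactor, also rose (adjusted p = 1.38e-05 and 0.000902). For tio the KO libraries held 42.6, 37.8 and 40.9 and the WT libraries 13.4, 12.2 and 14.9, and for vg the KO libraries held 148, 156 and 158 and the WT libraries 81.4, 92.6 and 88.5.

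Lists of markers of other cells that the sort could hold were counted too, and their part in the result was not tested. These lists are not separate from the factors above. The optic lobe and mushroom body lists both hold ey and dac, and the progenitor list holds erm. Over all genes tested 1.75% rose and 1.32% fell. In the list of the optic lobe and eye disc, 5 of 22 genes were higher and 1, lz, was lower (limma adjusted p = 0.0466, edgeR 0.181, lost without any 1 of the 6 libraries except KO replicate 3, with an adjusted p up to 0.2), and their summed level was 2235 to 2382 in KO and 2046 to 2120 in WT. Mushroom body genes had 3 of 16 higher, namely ey, dac and Fas2, with a summed level of 4764 to 5391 in KO and 4076 to 4872 in WT. Neuroblast and progenitor genes had 1 of 18 higher, tll, and 1 lower, erm (for tll, limma adjusted p = 0.0486, edgeR 0.0561, lost without any 1 of the 6 libraries except WT replicate 1, with an adjusted p up to 0.212), with a summed level of 3394 to 3649 in KO and 3741 to 4093 in WT. The optic lobe count was 3 without any 1 of the 3 KO libraries or WT replicate 1, and 2 without WT replicate 3 or when both rRNA-rich libraries were left out.

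**Figure D2:**
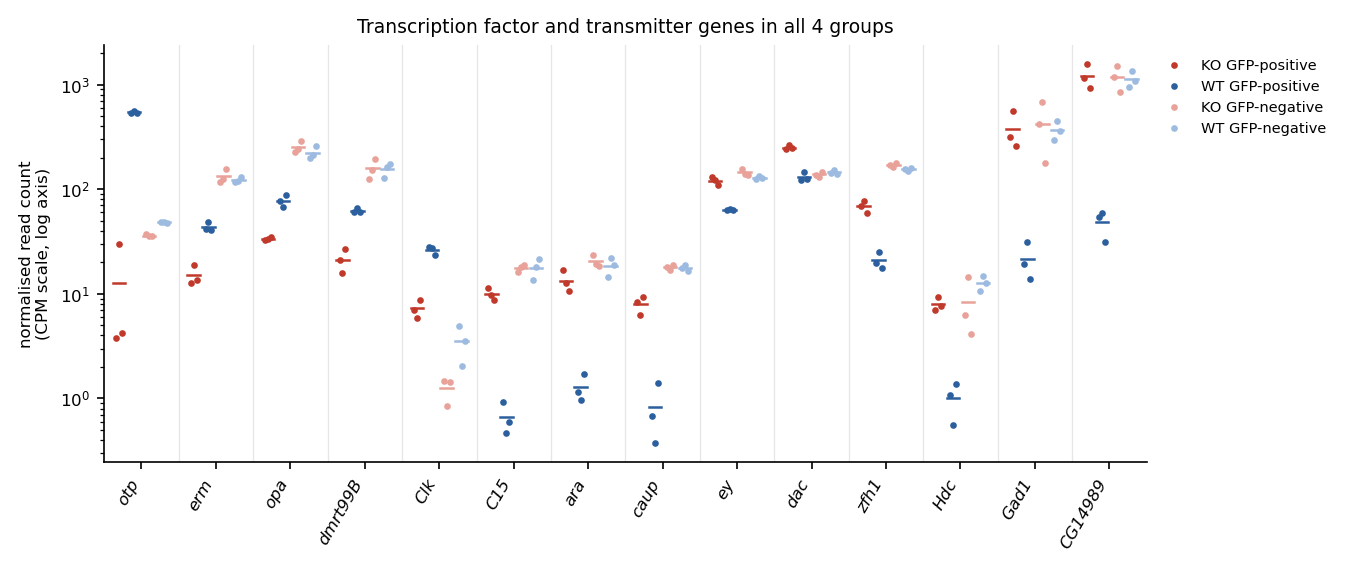
Normalised read counts (CPM scale, log axis) of 14 genes in each library of the 4 groups, with KO left of WT within each fraction; lines are means of 3. otp, erm, opa, dmrt99B and Clk lie lower in KO GFP-positive cells, and the genes from C15 to CG14989 lie higher. None of the 14 passed between KO and WT GFP-negative cells.

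Targets of Notch signalling that passed were higher in KO. Of 15 tested genes of newborn neurons and Notch targets 3 rose and 12 did not pass, with a median of 0.46, and 5 rose in the blocked fit. E(spl)m7-HLH, a Hairy-related repressor that Notch induces, had 46, 43.3 and 45.7 in KO and 18.1, 14.9 and 25.3 in WT (adjusted p = 0.000607). E(spl)m8-HLH, a second gene of that complex, had 24.8, 25 and 21.4 in KO and 10.8, 12 and 13.3 in WT (adjusted p = 0.00125). Hey, a Notch target in newborn neurons, had 166, 192 and 139 in KO and 98.4, 88.3 and 92.3 in WT (adjusted p = 0.00134). The summed level of the list was 3604 to 3918 in KO and 3472 to 3617 in WT. In GFP-negative cells E(spl)m7-HLH had 289, 355 and 355 in KO and 254, 237 and 283 in WT. Hey had 682.5, 675 and 664 in KO and 538, 570.5 and 464 in WT there. Both were thus higher in KO without overlap in that fraction too, but did not pass (limma adjusted p = 0.604 and 0.368). E(spl)m8-HLH overlapped there, at 177, 232 and 211 in KO and 150, 176 and 193 in WT (limma adjusted p = 0.667).

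Other genes linked to Notch lay outside the list. E(spl)m6-BFM, a Bearded-family gene of the same complex on 3R, had 205, 176 and 181 in KO and 40.1, 41.6 and 66 in WT, a 3.81-fold rise (adjusted p = 3.04e-05). bib, an aquaporin-family protein named for its neurogenic mutant phenotype, had 67.8, 53.2 and 54.7 in KO and 31, 27.6 and 24.8 in WT (adjusted p = 0.000816). In GFP-negative cells E(spl)m6-BFM was also higher in KO without overlap, at 421, 477.5 and 553 against 281, 365 and 365 in WT. It did not pass there (limma adjusted p = 0.436), and the GFP-negative groups of bib overlapped (limma adjusted p = 0.72).

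Genes of cell division gave 3 risen of 35 tested, with a median of 0.15, where 1.75% of all genes tested rose. The count was 1 without KO replicate 1, without WT replicate 1 or when both rRNA-rich libraries were left out. Klp61F, a kinesin-5 of the mitotic spindle, had 15.1, 11 and 14.9 in KO and 4.56, 4.32 and 6.54 in WT (adjusted p = 0.000435). In GFP-negative cells Klp61F had 102, 107 and 107 in KO and 65.1, 79 and 70.5 in WT. These groups did not overlap, but the difference did not pass (limma adjusted p = 0.242). The neuroblast factors stayed low beside the GFP-negative fraction. wor, a Snail-family neuroblast factor, had 6.21, 6.54 and 9.24 in KO and 5.96, 6.04 and 5.61 in WT GFP-positive cells (adjusted p = 0.59), against 564 ± 45.1 in KO and 443 ± 33 in WT GFP-negative cells (SD, n = 3). ase, a proneural factor of neuroblasts, had 6.44, 5.21 and 7.52 in KO and 4.88, 3.9 and 3.71 in WT, which did not pass (limma adjusted p = 0.0988), but did with DESeq2 (0.0142) and in limma without KO replicate 2 (0.0478).

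Gad1 and CG14989, 2 overlapping genes on 3L, had among the largest rises. Gad1 (4074077 to 4088744), which makes GABA, had 318, 556 and 256 in KO GFP-positive cells and 19.3, 31.5 and 14 in WT GFP-positive cells, a 17.4-fold rise (log2 4.06 ± 0.43, SE; adjusted p = 9.07e-05). CG14989 (4087581 to 4092706) had 1147, 1556 and 924 in KO and 53.8, 59.7 and 31.2 in WT (log2 4.64 ± 0.27, SE; adjusted p = 5.79e-07). The 2 genes lie on opposite strands and share 1164 bases, the library protocol keeps no strand, and the reads in the shared stretch cannot be assigned to either. Both were also abundant in GFP-negative cells, Gad1 at 423 ± 248 in KO and 366 ± 75.6 in WT and CG14989 at 1175 ± 335 in KO and 1131 ± 201 in WT (SD, n = 3).

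VGlut, the vesicular glutamate transporter that marks glutamatergic neurons, was lower in value but its groups overlapped. It had 1158, 2274 and 1186 in KO and 1898, 3262 and 1978 in WT (adjusted p = 0.451). In each genotype replicate 2 was the highest, and in the fit blocked by runs VGlut fell (adjusted p = 0.0238). The list of fast transmitter synthesis and transport had 1 of 10 tested genes called, Gad1, and 2 risen in the blocked fit.

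Of 12 tested genes of monoamine synthesis and transport 3 rose and 9 did not pass. Hdc, which makes histamine, had 7.04, 9.25 and 7.64 in KO and 1.08, 0.557 and 1.38 in WT (adjusted p = 0.00179). Tdc2, the neuronal tyrosine decarboxylase that makes tyramine, had 59.3, 183 and 71.7 in KO and 14.6, 19.9 and 10.2 in WT. That rise was 7.02-fold, or 4.39-fold without KO replicate 2 (adjusted p = 0.00844). Tdc2 lies wholly within Rpp25, which is on the other strand and was not called.

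Neuropeptide genes moved both ways and varied most between replicates. Of 38 tested 2 rose, 3 fell and 33 did not pass, and in the blocked fit 4 rose. Ms, which encodes myosuppressin, had 1.46, 39.6 and 1.06 in KO and 127, 463 and 160 in WT, replicate 2 being the highest in both genotypes. Its fall was 17.8-fold, 198-fold without KO replicate 2 and 10.2-fold without WT replicate 2 (limma adjusted p = 0.00411, edgeR 0.0617, and 0.0532 when both rRNA-rich libraries were left out). CCHa1, a brain and gut peptide, had 1.98, 8.42 and 1.37 in KO and 18.4, 49.3 and 27.2 in WT, an 8.06-fold fall that was 18.9-fold without KO replicate 2. Its call (limma adjusted p = 0.0123, edgeR 0.0736) was lost without KO replicate 1 or 3, with an adjusted p up to 0.0662, and when both rRNA-rich libraries were left out (0.133). Tk, which encodes tachykinins, had 11, 23.7 and 8.11 in KO and 1.4, 2.56 and 0.594 in WT, a 9.42-fold rise that was 14.3-fold without WT replicate 2 (adjusted p = 0.0135) and was lost without KO replicate 2 or WT replicate 3, with an adjusted p up to 0.0688.

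The fallen peptide count was 1 without KO replicate 1 or 3 and 0 when both rRNA-rich libraries were left out, and the risen count was 0 without WT replicate 3 and 1 without any 1 of the 3 KO libraries or WT replicate 1. Of 38 tested neuropeptide receptors 1 rose, 1 fell and 36 did not pass, with a median of -0.05. Over all genes tested 1.75% rose and 1.32% fell. hec, a receptor related to those of calcitonin-like peptides, had 8.61, 21.4 and 9.95 in KO and 3.05, 7.34 and 2.9 in WT (limma adjusted p = 0.0458, edgeR 0.0616). Its call was lost without KO replicate 2, KO replicate 3, WT replicate 1 or WT replicate 3, with an adjusted p up to 0.209. Dh44-R2, a receptor for the diuretic hormone DH44, fell, at 55.4 ± 14.1 in KO and 117 ± 3.26 in WT (SD, n = 3; limma adjusted p = 0.00818, and 0.0523 when both rRNA-rich libraries were left out).

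A transporter, a sensory co-receptor and the gene stac were among the fallen genes. Oatp26F, an organic anion transporter, had the smallest interaction p of the called genes: it stood at 3.07, 5.84 and 5.13 in KO GFP-positive cells and 131, 144 and 152 in WT GFP-positive cells, a 30.4-fold fall (log2 -4.69 ± 0.22, SE; adjusted p = 7.66e-08). Ir25a, a co-receptor of the ionotropic receptor family in chemosensory, thermosensory and humidity-sensing neurons, had 1.16, 1.41 and 2.15 in KO and 11.3, 10.4 and 19.8 in WT (adjusted p = 4.63e-05). stac had 6.03, 10.2 and 8.11 in KO and 35.5, 35.5 and 30.8 in WT (adjusted p = 0.000161). Ir25a was the 1 called gene among 35 nicotinic, glutamate, GABA and ionotropic receptors tested, and stac the 1 called among 38 of the synaptic vesicle and active zone list, with medians of 0.07 and 0.09. Over all genes tested 3.07% were called, so neither list stood out by its count. In GFP-negative cells of both genotypes Oatp26F had 16.5 to 28.4, above the KO GFP-positive libraries.

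Adhesion and wiring genes gave 6 risen of 36 tested, and the count was 3 without KO replicate 2, KO replicate 3 or WT replicate 3. caps and trn, leucine-rich repeat proteins of target recognition that both lie on 3L, rose. caps had 366, 313 and 320 in KO and 198, 191 and 195 in WT (adjusted p = 0.000197), and trn had 272, 210 and 241 in KO and 117, 107 and 121 in WT (adjusted p = 0.000234). Fas2, a homophilic adhesion protein of axons, had 631, 576 and 584 in KO and 352, 409 and 375 in WT (adjusted p = 0.00106).

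In axon guidance, 3 of 35 tested genes rose and 2 fell. The risen count was 1 without KO replicate 2 or WT replicate 3, and the fallen count was 1 without any 1 of the 6 libraries except WT replicate 2, and when both rRNA-rich libraries were left out. comm, which keeps Robo receptors from the surface of axons that cross the midline, had 146, 122 and 113 in KO and 53.8, 61.9 and 61 in WT (adjusted p = 0.000161). Drl-2, a Ryk-family receptor for Wnt5, had 128, 153 and 129 in KO and 279, 275 and 235 in WT (adjusted p = 0.000161).

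The dpr and DIP genes, whose proteins bind each other in pairs at synapses, gave 2 risen and 1 fallen of 32. Of these, 6 rose in the blocked fit, and 1 rose without KO replicate 1, KO replicate 2, WT replicate 1 or WT replicate 3. DIP-beta had 94.3, 150 and 78.3 in KO and 38.4, 34.5 and 28.4 in WT (adjusted p = 0.00109). DIP-theta had 100, 108 and 84.2 in KO and 201, 187 and 207 in WT (adjusted p = 0.00155). Members of 1 family thus differed in direction, with no overlap between the groups in either gene.

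The following 5 lists of neuronal genes had no gene called by limma or edgeR. They were 20 pan-neuronal genes, 22 potassium channels, 18 sodium, calcium and leak channels, 12 TRP and mechanosensory channels and 21 genes of the beat and side family. Of these, 0, 1, 5, 3 and 2 had an unadjusted p under 0.05, and DESeq2 called 1, of the beat and side family. Their median log2 changes lay between -0.34 and 0.22. The 10 Hox genes and cofactors and the 12 muscle genes had 0 called by limma, edgeR or DESeq2 and 0 at an unadjusted p under 0.05. Of the 25 glial genes limma called 0, edgeR 1 and DESeq2 2, and 2 had an unadjusted p under 0.05. The summed level of the glial list was 1713 to 2295 in KO and 1740 to 1910 in WT.

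**Figure D3:**
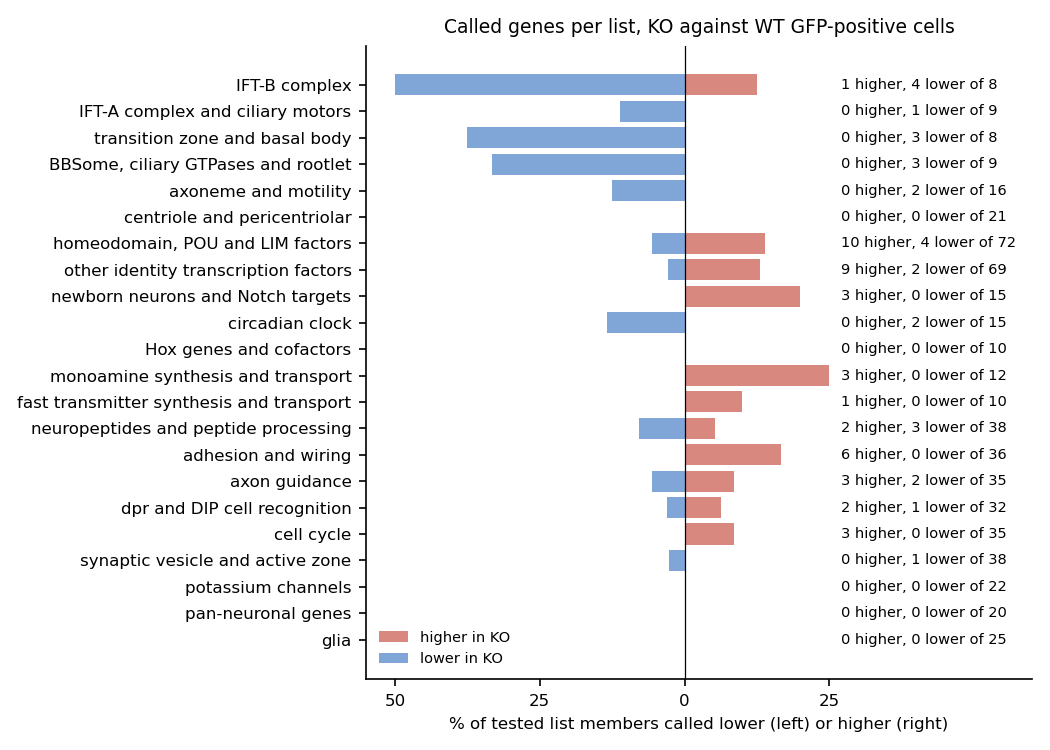
Percent of the tested members of 22 gene lists called lower (left, blue) or higher (right, red) in KO against WT GFP-positive cells with limma; the counts stand at the right. Over all genes tested the shares were 1.32% lower and 1.75% higher.

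Other genes with large changes belong to none of these lists. CG34355 had 228, 211 and 181 in KO and 621, 580 and 647 in WT (adjusted p = 1.96e-06). Jhbp2, a juvenile hormone binding protein, had 14.6, 41.4 and 18.5 in KO and 1.62, 1.49 and 1.75 in WT (adjusted p = 4.45e-05), and CG14075 had 7.9, 11.8 and 12.8 in KO and 1.08, 0.976 and 0.669 in WT (adjusted p = 3.89e-05). In both the GFP-negative libraries stayed at the WT GFP-positive level, between 0.218 and 2.78. twy fell to 0.861, 1.18 and 1.57 in KO, against 12.5, 9.24 and 10.3 in WT (adjusted p = 6.58e-05). CG31036 had 0.486, 0.157 and 0.901 in KO and 4.17, 6.97 and 5.46 in WT, a 10.7-fold fall that was 17.2-fold without KO replicate 3 (adjusted p = 0.00195).

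The genotype difference was then set beside that in GFP-negative cells, which share no library with the GFP-positive comparison. The comparisons are still not independent, since 1 fit gave both the same estimate of spread for each gene. Deviations from group means also correlated between the fractions of a genotype within replicates 1, 2 and 3. The values were 0.11, 0.57 and 0.52 in KO and 0.38, 0.37 and 0.26 in WT. In GFP-negative cells 68 genes passed (0.686%), 43 higher (0.434%) and 25 lower (0.252%) in KO. Of the 304 genes called in GFP-positive cells, 54 were called in the same direction in GFP-negative cells, 35 higher and 19 lower, and 0 in opposite directions. These 54 are 17.8% of the GFP-positive calls and 79.4% of the GFP-negative calls. The test of the difference itself, the interaction of genotype with GFP, called 55 genes (0.555%), 28 with a more positive (0.282%) and 27 with a more negative (0.272%) difference in GFP-positive cells. It called 101 genes in the blocked fit and 34 without KO GFP-negative replicate 1. nompB, IFT52, IFT57, IFT43, Fam92, dnd, hmw, nmdyn-D7, otp, erm, opa, C15, ara, caup, ey, dac, Hdc and Gad1 are among them, and their interaction p-values are given with the results marked for a closer look.

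**Figure D4:**
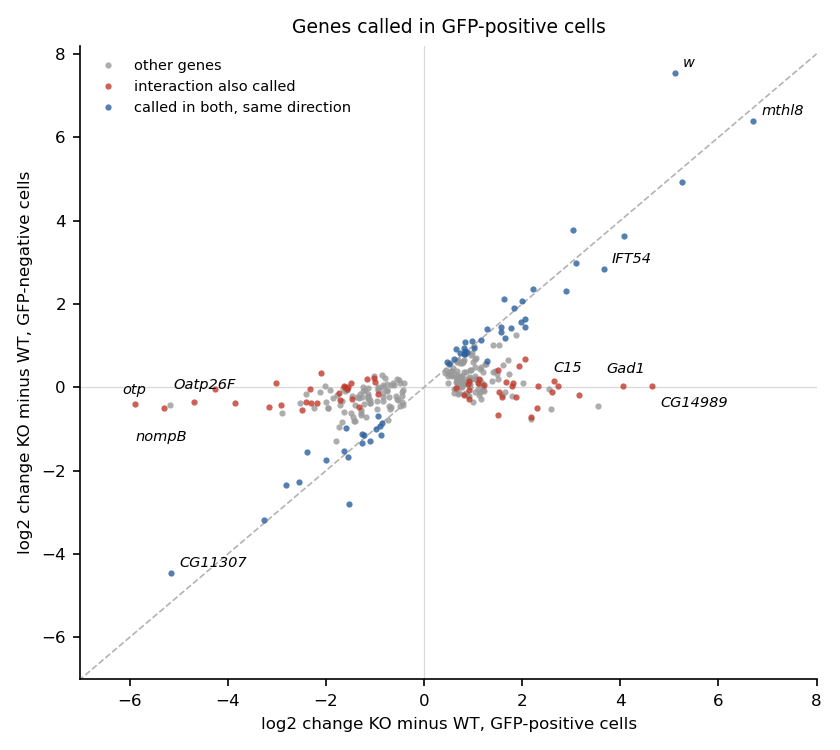
Log2 change KO minus WT in GFP-positive (x) and GFP-negative cells (y) for the 304 genes called in GFP-positive cells; the dashed line marks equal changes. The 54 genes called in both fractions changed in the same direction in each, and w among them lies above the line (5.11 on x, 7.54 on y). The 55 genes with a called interaction do not all lie on the horizontal axis, with Hdc at -0.71 and E(spl)m6-BFM at 0.52 on y.

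The genes that differed by genotype in both fractions include mthl8, the gene with the largest rise of the whole comparison. w, the ABC transporter of eye pigment precursors, had 2352, 2666 and 3429 in KO and 102.5, 60.6 and 81.3 in WT GFP-positive cells (adjusted p = 7.1e-06), and in GFP-negative cells it averaged 1803 ± 981 in KO and 8.81 ± 5.65 in WT (SD, n = 3). mthl8, a gene of the Methuselah-like receptor family at the tip of 3L, had 149, 132 and 153 in KO and 1.22, 0.0929 and 0.112 in WT, or 34, 2 and 3 reads in the WT libraries. The ratio of means was 305-fold, or 1418-fold without WT replicate 1 (adjusted p = 2.48e-08). For both genes every KO library lay far above every WT library in either fraction.

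Some of these genes are neighbours. Of the 54, 52 have a position in the annotation, 37 of them lie on 3L or 3R, and 13 fall into 5 runs of genes no more than 20 kb apart. For scale, 1915 tested genes lie on 3L, and 195, 358 and 1817 in the 3R windows described below. The other large arms hold 1753 (2L), 1934 (2R) and 1646 (X) tested genes. How often tested genes in general lie within 20 kb of each other was not counted, so the runs have no background share. The run on 3R from 13032528 to 13051453 holds ry, Hsc70-2, CG31157 and CG7966, which all rose. Hsc70-2, a cognate of the Hsp70 chaperones, had 57.6, 46 and 59 in KO and 0.682, 0.139 and 0.557 in WT (adjusted p = 7.66e-08). CG31157 had 20.8, 20.1 and 24.2 in KO and 0.359, 0.465 and 0.223 in WT (adjusted p = 7.66e-08). ry, xanthine dehydrogenase, had 11.9, 19.9 and 42.3 in KO and 2.48, 1.39 and 1.6 in WT, a 13.6-fold rise that was 8.73-fold without KO replicate 3 (adjusted p = 0.00301).

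IFT54 shares a run on 3R with Set8, a histone H4 methyltransferase. Set8 had 127, 124 and 109 in KO and 76.2, 59.3 and 65.7 in WT (adjusted p = 0.000602). On 3L, sturkopf, a protein of lipid droplets, and the adjoining Herc4, a ubiquitin ligase, both rose. sturkopf had 86.4, 92.9 and 76.4 in KO and 21.4, 26.9 and 21.7 in WT (adjusted p = 3.66e-06), and Herc4 had 227, 223 and 238 in KO and 105, 121 and 112 in WT (adjusted p = 2.25e-05). CG42846 on 3L and CG42556 on 2L, each in a further run, had means of 8.47 and 15.6 in KO and 0.254 and 0.952 in WT (adjusted p = 7.69e-06 and 5.4e-06). CG42556 lies wholly within tweek on the same strand, so its reads may be shared.

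Of the genes lower in both fractions, CG11307 had the largest fall. It stood at 1.01, 3.1 and 0.744 in KO and 87.5, 85.6 and 83.7 in WT, a 53.0-fold fall that was 97.6-fold without KO replicate 2 (adjusted p = 8.24e-07). wnd, the DLK kinase of axon injury signalling, had 38, 42.7 and 51 in KO and 164, 189 and 176 in WT (adjusted p = 8.84e-07). Ir76a, an ionotropic receptor, had 4.49, 2.66 and 4.39 in KO and 30.4, 33.4 and 34.6 in WT (adjusted p = 2.01e-05). Hsp70Ba had 1.91, 1.02 and 3.21 in KO and 24.7, 22.9 and 35.2 in WT (adjusted p = 9.01e-05), and GILT3, a thiol reductase family gene, had 0.374, 0.47 and 0.235 in KO and 6.36, 6.46 and 5.35 in WT (adjusted p = 2.62e-05). Hsp70Ba has near-identical copies, between which the counting could split reads.

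**Figure D5:**
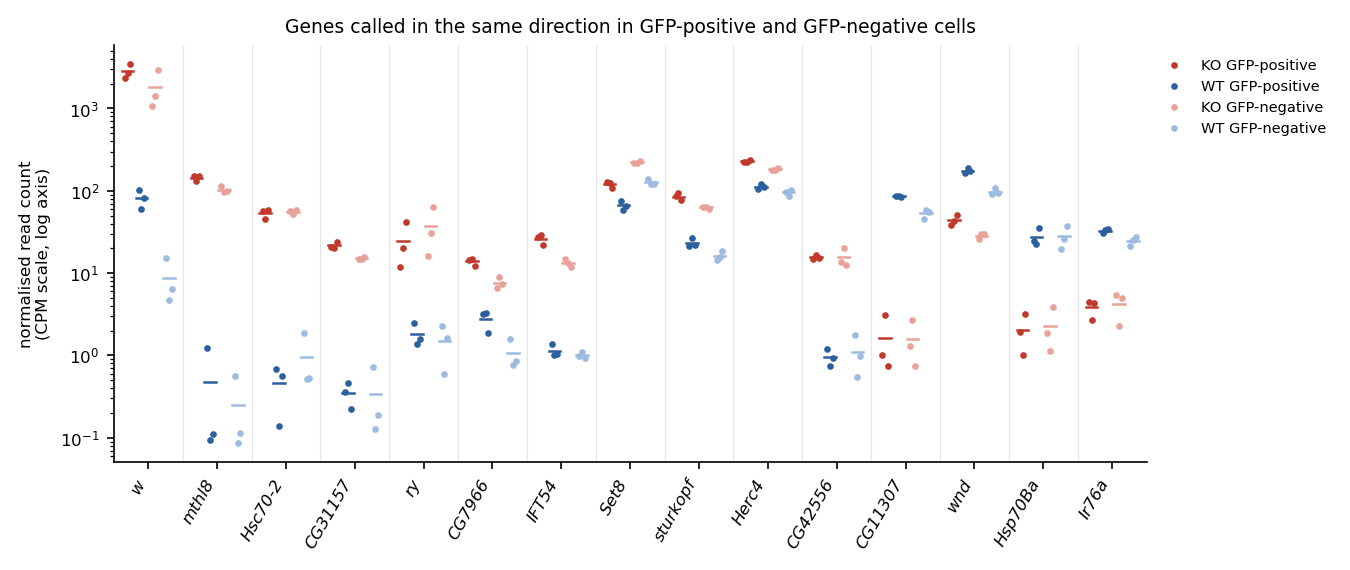
Normalised read counts (CPM scale, log axis) of 15 genes called in the same direction in both fractions, by library, with KO left of WT within each fraction; lines are means of 3. In each gene the KO and WT libraries separate in the same way in GFP-positive and GFP-negative cells.

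Position along the genome gave the following shares. On the arm of Rfx, 11 of 195 tested genes within 1 Mb of it were called in GFP-positive cells (5.64%), 19 of 358 between 1 and 3 Mb (5.31%) and 60 of 1817 farther away (3.3%). On the other large arms the shares were 2.62% on 2L, 2.02% on 2R, 3.55% on 3L and 3.22% on X, while arm 4 had 2 of 91 called and Y 1 of 4. In GFP-negative cells the same windows on the arm of Rfx had 0.513%, 3.07% and 0.826% called. The other large arms had 0.342% on 2L, 0.155% on 2R, 1.1% on 3L and 0.486% on X called in that fraction. Of the 11 genes within 1 Mb, 9 fell and 2 rose, and 1 was called in both fractions, while of the 19 between 1 and 3 Mb, 9 were called in both. Genetic background and the knock-out cannot be told apart in a comparison of a KO with a WT strain.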

How the data were processed

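Each library started from 4 ng of RNA and used the SMARTer Ultra Low and Nextera kits, per the labels' protocols. The deposited signal is a normalised read count per gene on the CPM scale. Each value is a whole number of reads times a per-library constant in 100% of values (tolerance 0.001), and those reads were recovered for edgeR and DESeq2. Per the submitters' processing notes, the build was BDGP6 and the tools included edgeR 3.10.5, HTSeq 0.6.1 and TopHat2 2.0.13. Genes were named and placed from Ensembl release 115 (BDGP6.54), which matched 12389 of 12610 identifiers. The other 221 were tested without a name.

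Genes at a value of 1 or more in 3 or more libraries entered limma-trend (version 3.58.1 in R 4.3.3) on log2(value + 1), in 1 fit of the 12 libraries with 4 group means, two-sided, with Benjamini-Hochberg adjustment over 9912 genes and a threshold of 0.05. Fold changes on this scale understate the change of low genes; folds in the text are ratios of group means. edgeR 4.0.16 (quasi-likelihood) and DESeq2 1.42.0 were run on the recovered reads as alternatives, and the fits were tested on simulated data. Other alternatives were other pseudocounts and floors, rescaled and quantile-normalised values, lane as a covariate, and fits that leave out libraries.

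Replicates were numbered in accession order, which puts title numbers 13 to 16 in replicate 1, numbers 1 to 4 in replicate 2 and numbers 5 to 8 in replicate 3. Deviations of KO and WT GFP-positive libraries from their group means correlated at 0.15, 0.60 and 0.30 within replicates 1, 2 and 3. Pairs of different runs gave -0.41 to 0.20, a range that holds the value of replicate 1. A fit with the run as a block was treated as the paired fit. Lane was partly confounded with genotype, since numbers 5 to 8 were split by genotype between lanes 7 (KO) and 6 (WT).

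The 43 gene lists, the members and the tests were chosen with earlier results of these data known. Named genes are Rfx, the 15 largest folds in each direction, up to 6 called and 3 uncalled genes per list, 8 genes called in both fractions and 6 with the smallest interaction p. Of the genes so eligible, those whose call was lost when 1 library was left out were mostly not named. btd, Sp1, dmrt99B, tio, vg, E(spl)m6-BFM, bib, wor, ase, elav, repo, CG7966, Herc4, Set8 and Ir76a were named after their values were seen. Of the named genes, 27 overlap another tested gene, and Gad1 and CG14989 are the ones whose overlapping gene was called. Promoter motifs were not analysed here.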

Additional observations from a re-analysis of the deposited data

Results flagged for a closer look

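The genes below were marked because the KO minus WT difference in GFP-positive cells differed from that in GFP-negative cells by the interaction of genotype with GFP (limma adjusted p over 9912 genes, 3 libraries in each of 4 groups), except where a gene is said not to have passed. Their GFP-positive libraries are given in the results above. Rfx itself had an interaction adjusted p of 0.0236.

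Among the cilium genes, the fall in GFP-positive cells exceeded that in GFP-negative cells for nompB and IFT52 (6.41e-05 for each), hmw (8.24e-05) and nmdyn-D7 (0.000645). Fam92 (0.00115), IFT57 (0.00238) and dnd (0.00341) followed, and then IFT43 (0.0128), Root (0.0248) and B9d1 (0.0487). For Oseg5, dila and BBS1, which also fell in GFP-positive cells, the difference between the fractions did not pass (0.0744, 0.107 and 0.991).

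Of the factors that fell, otp had an interaction adjusted p of 0.00238, erm 0.00271, opa 0.0037, dmrt99B 0.0236 and btd 0.0355, while Sp1 (0.061) and Clk (1) did not pass. Of those that rose, C15 (0.000335), CG32532 (0.000587), tio (0.000802), zfh1 and ara (0.00145 for each), caup (0.00229) and dac (0.00299) had the smaller values. Hr51 (0.012), vg (0.0129), ey (0.0186), kn (0.0236) and salm (0.0324) also passed. In the Notch group E(spl)m6-BFM passed (0.0248), while E(spl)m7-HLH, E(spl)m8-HLH, Hey and bib did not (0.229, 0.284, 0.807 and 0.139). Klp61F, of the cell division genes, did not pass either (0.518).

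Among genes of transmission and membranes, Oatp26F had the smallest value (5.96e-05), followed by Gad1 (0.00835), Hdc (0.0129) and Ir25a (0.0236), while stac (0.073), Tdc2 (0.0807), Ms (0.198), Tk (0.257), CCHa1 (0.66), Dh44-R2 (0.742) and hec (0.921) did not pass. CG14989, which overlaps Gad1, had 8.14e-05. Of the wiring genes, DIP-theta (0.0206), DIP-beta (0.022), comm (0.0237), Drl-2 (0.0451) and Fas2 (0.046) passed, and trn (0.0637) and caps (0.191) did not. The remaining marked genes are CG34355 (0.000292), Jhbp2 and CG14075 (0.00238 for each) and twy (0.0183).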

How the results depend on the processing

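No alternative reversed the direction of a called gene named in the text. Of the uncalled genes, elav (0.03) turned to -0.03 with quantile normalisation and repo (0.06) to -0.00 with that, -0.03 with edgeR and -0.02 with DESeq2; with 1 library left out elav ranged between -0.04 and 0.13 and repo between -0.66 and 0.65. The genes risen in GFP-positive cells numbered 173, against 270 with DESeq2, 288 with the replicate block (the paired fit) and 103 in a fit of the 6 GFP-positive libraries alone. The fallen genes numbered 131, against 235 with DESeq2, 187 with the replicate block and 84 in the fit of the 6 GFP-positive libraries alone. Leaving out 1 library gave 107 to 160 risen and 96 to 109 fallen genes. In GFP-negative cells 68 genes were called, 49 to 71 with 1 library left out, 153 with DESeq2 and 40 without title numbers 1 to 4, an alternative chosen after seeing the data. The interaction called 55 genes, 34 to 51 with 1 library left out, 116 with DESeq2, 101 with the replicate block and 32 without title numbers 1 to 4. The causes were not tested.

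Of the 304 called genes, 275 were also called by edgeR, 303 by DESeq2, 303 with the replicate block, 293 with lane as a covariate, 202 when both rRNA-rich libraries were left out and 188 without title numbers 1 to 4. Of 82 called genes named in the text, 74 passed under every alternative that gave them an adjusted p, and BBS1, CCHa1, Dh44-R2, Ms, Tk, hec, lz and tll did not. The choice of named genes favours that count of 74. The adjusted p of hec, lz and tll, called just under the threshold, reached 0.209, 0.2 and 0.227 under the alternatives run. Ms was also lost in the fit of 6 libraries (0.0681) and Tk with a pseudocount of 5 (0.0515). DESeq2 gave no adjusted p for otp, and B9d1 and CG31036 were too low to enter the fit that asked for a value of at least 5 in 3 libraries. Apart from the blocked values given with the results, the block changed no other call of a named gene. Values below about 1 rest on few reads a library, so folds of such genes are imprecise.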
